A study of Equus caballus with 4 samples.

Results

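The neurotrophins BDNF and NTF3, the Trk receptors NTRK2 and NTRK3, the pan-neurotrophin receptor NGFR, the sorting receptor SORT1 and the related factor GDNF were followed in differentiating equine satellite cells (ESC). They were chosen by name: every probe that is not a control spot and whose gene name in the scanner files equals one of these 7 symbols was taken, on all 4 arrays. The choice gave 18 of 43603 probes and covered 6 of the 7 symbols, among 24998 gene names on the array. No probe carried the symbol GDNF, but 3 probes of a transcript described as glial cell derived neurotrophic factor were added and are kept apart from the counts.

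ESC are stem cells of skeletal muscle, which divide after damage and then fuse to form fibers. The HMB-treated group received 50 µM β-hydroxy-β-methylbutyrate (HMB), a metabolite of leucine, for 24 h up to day 3 of differentiation and 3 mM hydrogen peroxide in the last 1 h. The control group received the same hydrogen peroxide without HMB, so both groups were exposed to the oxidant and no unexposed cells were compared. Each array held Cy5-labeled RNA of HMB-treated cells together with Cy3-labeled RNA of control cells, and a log2 ratio below 0 means less signal in the HMB-treated group. The cells came from the semitendinosus muscle of 6-month-old stallions, and the culture with the best viability and fusion was used, so the 4 arrays, which the labels call biological replicates, need not stand for 4 horses. The dyes were not swapped, hence treatment and dye cannot be told apart. On all arrays the control carries replicate number 1 in the labels. If it was 1 RNA, its own spread is missing from the errors, and the p-values then measure the spread between these arrays only.

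BDNF and NTF3 belong to 1 protein family, are made as proneurotrophins and are cleaved to the mature factors by furin-type convertases or by extracellular proteases. Mature BDNF binds the kinase receptor TrkB (NTRK2) and neurotrophin-3 binds TrkC (NTRK3), whereas the proforms bind p75 (NGFR) together with sortilin (SORT1). In skeletal muscle BDNF is made by satellite cells and myofibers, and NTF3 and GDNF are known as factors that support motor and sensory neurons. GDNF is not a neurotrophin by sequence and acts through GFRA co-receptors and RET.

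The probes that measured these genes are shown first, because their position decides what was measured. In the lines below, capitals mark the run of 19 bases that the BDNF probe shares with both NTF3 probes. It was the longest run shared between the probes of different members.
BDNF A_69_P001124: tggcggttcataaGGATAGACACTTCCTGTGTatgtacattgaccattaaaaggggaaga
NTF3 A_69_P051496: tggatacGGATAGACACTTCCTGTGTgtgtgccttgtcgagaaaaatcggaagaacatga
NTF3 A_69_P051497: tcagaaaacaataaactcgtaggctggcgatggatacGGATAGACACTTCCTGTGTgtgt
SORT1 A_69_P076736: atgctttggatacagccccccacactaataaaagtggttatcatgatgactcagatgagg
NGFR A_69_P033776: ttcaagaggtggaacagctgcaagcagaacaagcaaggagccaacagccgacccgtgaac
NTRK2 A_69_P122961: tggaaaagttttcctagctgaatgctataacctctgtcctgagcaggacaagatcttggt
GDNF A_69_P028861: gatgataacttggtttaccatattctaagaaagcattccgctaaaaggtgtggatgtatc
All probes were 60 bases long and lie on EquCab1, the build in the file headers. The files name no exon for a probe. The 5 BDNF probes (transcript NM_001081787) start 1 base apart and together cover chr7:81844440-81844503 on the minus strand, so they share 56 bases and count as 1 site. The last of them, A_69_P001121, reads open in 1 frame up to a stop codon. The 3 NTF3 probes lie within chr6:33413621-33413755 on the plus strand, the SORT1 probe at chr5:25034547-25034606 on the minus strand and the GDNF probes within chr21:23558656-23558755 on the plus strand. The NGFR probe is aligned over chr11:24150910-24152137, which is 1228 positions for 60 bases. The 3 NTRK2 probes lie on unplaced sequence, with A_69_P122961 at base 1720 of the transcript and the other two at bases 3301 and 3344. The 5 NTRK3 probes start 1 base apart at chr1:92452449-92452512, share 56 bases and hold a stop codon in every reading frame; they are not printed.

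Of the 18 probes, 7 were tested, since a tested probe had the same channel well above background on all 4 arrays. All 7 were called lower in the HMB-treated group, which means an adjusted p of at most 0.05 and a fold change (FC) of at least 1.3. Over the whole array 28.6% of the 24669 tested probes were called, 16.4% lower and 12.1% higher. The 7 probes stand for 3 sites, namely those of BDNF, SORT1 and NTRK3. The NTRK3 probe entered the test through its control channel alone, and when both channels had to be above background on all arrays, 6 probes of 2 genes were called. The other 11 probes were too dim for the test and are given by their values. Of these, 7 were well above background in neither channel on any array. In these bulk RNAs, fewer cells of a type and less RNA per cell cannot be told apart.

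BDNF was lower in the HMB-treated group on every array and at every probe. The Cy3 signal of the probe A_69_P001124 in control cells was 2455, 2244, 3084 and 2444 on arrays 1 to 4. The Cy5 signal of HMB-treated cells was 1005, 1074, 1567 and 1272. The control and HMB-treated ranges of signal did not overlap. The log2 ratios were −1.29, −1.06, −0.98 and −0.94, with a mean of −1.07 ± 0.16 (SD, n = 4), an FC of 2.10 and a limma adjusted p of 1.69e-04. Over the 5 probes the mean log2 ratio lay between −1.07 and −1.02, and the largest adjusted p was 2.78e-04. A_69_P001125 gave −1.24, −1.08, −0.99 and −0.95 on arrays 1 to 4, A_69_P001123 gave −1.20, −1.10, −0.91 and −0.89, and A_69_P001122 gave −1.31, −1.05, −0.94 and −0.88. Array 1 had the lowest ratio at each of the 5 probes, and no ratio was above −0.88. A_69_P001121 was printed in 5 spots on each array, and the SD between these spots was 0.01 to 0.03 in log2 ratio, against an SD of 0.16 between arrays for the same probe. The spread of BDNF was therefore mainly between arrays and not between spots.

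SORT1, which sorts proneurotrophins and binds them at the cell surface with p75, was lower on all 4 arrays too. Its Cy3 signals in control cells were 312, 300.0, 383 and 278. Its Cy5 signals in HMB-treated cells were 202, 189, 274.3 and 204, all below the lowest control value. The log2 ratios of −0.63, −0.67, −0.48 and −0.45 gave a mean of −0.56 ± 0.11 (SD, n = 4), an FC of 1.47 and a limma adjusted p of 0.00126. This was the only SORT1 probe. Its call was lost with normexp background correction (−0.32), without background correction (−0.38) and against a threshold of the FC itself (limma treat, adjusted p = 0.134).

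NTRK3, the receptor for neurotrophin-3, was near the detection limit, and 1 of its 5 overlapping probes was tested. At A_69_P097079 the Cy3 signals in control cells were 33.5, 40.9, 45.0 and 36.5, all well above background. The Cy5 signals in HMB-treated cells were 23.2, 31.1, 33.9 and 17.5, of which 2 were well above background. The signals of the groups overlapped across arrays, by 33.9 in HMB-treated cells against 33.5 in control cells, although the ratio was below 0 on each array. The probe passed the filter only through the group in which it was higher, and with both channels required it was not tested. The mean log2 ratio was −0.60 ± 0.31 (SD, n = 4), with an FC of 1.51 and a limma adjusted p of 0.00900. The call was lost with the methods' t-test (adjusted p = 0.0780) and without the filter on dim probes (0.0668), and the mean was −0.074 with normexp and −0.13 without background correction.
The neighbouring probes differ from it by 1 to 3 bases at their ends and were too dim for the test. A_69_P097076, A_69_P097077 and A_69_P097078 were above background on no array, and their mean log2 ratios were −0.95, −0.46 and −1.52, below 0 on 4 of 4 arrays each. These ratios rest on a surrogate Cy5 value, set by the scanner software when a spot does not exceed its background, on 3, 4 and 4 of the arrays. Without the filter on dim probes A_69_P097078 was called lower (adjusted p = 0.0220). At A_69_P097080 the Cy3 signal was 79.5 on array 1 and 20.0 to 24.2 on the other arrays, and the Cy5 signal was 81.0 on array 1 and 7.76 to 14.7 on the others. Its log2 ratio was 0.03 on array 1 and −0.48, −1.07 and −1.36 on the others.

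**Figure D1:**
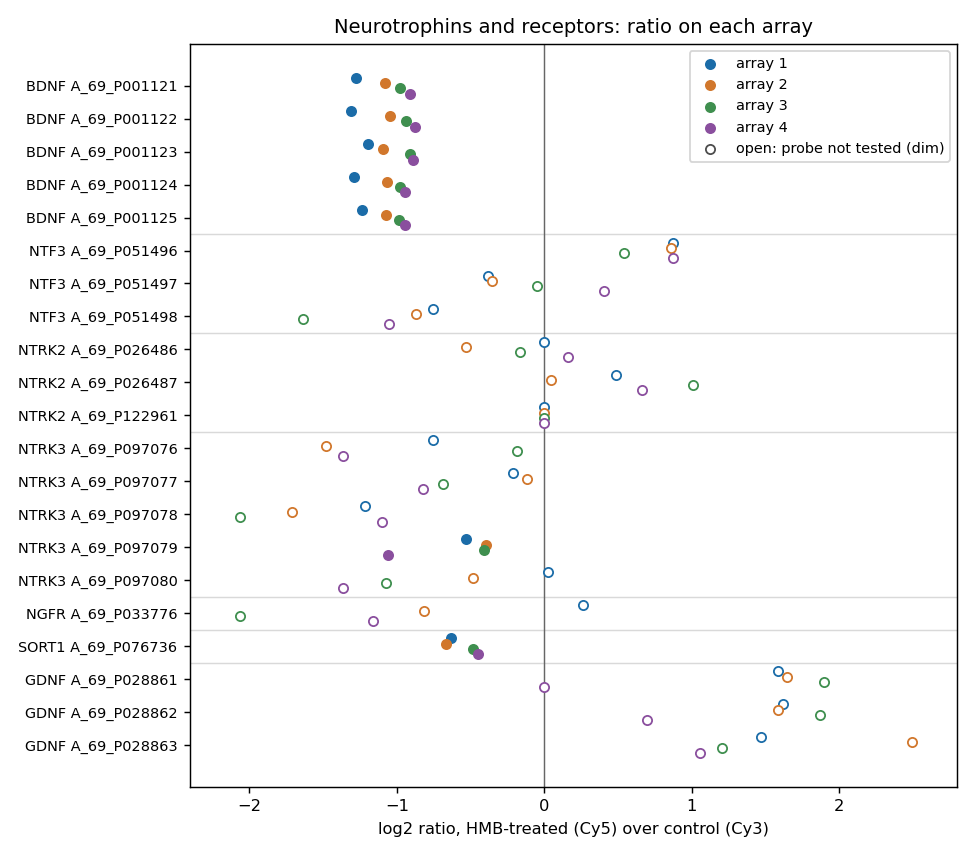
The log2 ratio of HMB-treated over control cells is plotted for each probe and each of the 4 arrays, with filled points for tested probes and open points for probes too dim to be tested. The BDNF points lie between −1.31 and −0.88 and the SORT1 points between −0.67 and −0.45, whereas the open points of NTF3, NTRK2 and NGFR lie on both sides of 0.

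NTF3 could not be placed in either direction. The 3 probes of its transcript disagreed: the log2 ratio was above 0 on 4 of 4 arrays at A_69_P051496, on 1 of 4 at A_69_P051497 and on 0 of 4 at A_69_P051498. At A_69_P051496 the Cy3 signals in control cells were 29.6, 18.9, 26.2 and 18.9, with 1 well above background. The Cy5 signals in HMB-treated cells were 54.1, 34.3, 38.0 and 34.6, with 3 well above background. The log2 ratios were 0.87, 0.86, 0.54 and 0.87, so this probe missed the filter by 1 array. Without replicate 4 it was tested, through the group in which it was higher, and called higher, at 0.76 with a limma adjusted p of 0.00435. In that setting A_69_P051497 was tested too and was not called, at −0.26 (adjusted p = 0.0905). Without the filter on dim probes A_69_P051496 was called at 0.78 with an adjusted p of 0.0126. Over the 4 arrays its mean was 0.062 with normexp and 0.21 without background correction. At A_69_P051497, which overlaps A_69_P051496 by 30 bases, the log2 ratios were −0.38, −0.36, −0.05 and 0.41. Each channel was well above background on 3 arrays. At A_69_P051498 neither channel was above background on any array, and the ratios of −0.75 to −1.63 rest on the surrogate Cy5 value. Without the filter on dim probes it was called lower, at −1.08 with an adjusted p of 0.0324.

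NTRK2, the BDNF receptor, was not detected at A_69_P122961 and was at or under the limit of detection at the other probes. At A_69_P122961 both channels held the surrogate value on all 4 arrays, and the log2 ratio was exactly 0. At A_69_P026486 no channel was above background on any array, and the ratios were 0, −0.53, −0.16 and 0.16. At A_69_P026487 the Cy3 signals were 30.6, 28.3, 21.6 and 19.3 and the Cy5 signals 42.9, 29.1, 43.4 and 30.5, with 1 and 2 of 4 well above background. Its log2 ratios of 0.49, 0.04, 1.01 and 0.66 were above 0 on all arrays, with a mean of 0.55 ± 0.40 (SD, n = 4) that was not called without the filter (limma adjusted p = 0.126). A low signal on an array does not show that a transcript is absent.

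NGFR, the p75 receptor that binds all neurotrophins, was not above background in either channel on any array. The Cy3 signals were 10.2, 18.4, 26.4 and 18.3 and the Cy5 signals 12.3, 10.5, 6.32 and 8.21. The log2 ratios of 0.26, −0.82, −2.06 and −1.16 spread more widely between arrays (SD 0.96) than their mean lay from 0 (−0.94), and no FC is given. The 3 GDNF probes were dim as well. Their Cy3 signals in control cells were 4.25 to 22.5 and were above background on no array. Their Cy5 signals in HMB-treated cells were 7.37 to 51.9 and were above background on 0, 1 and 2 of 4 arrays. The log2 ratios were above 0 on every array for A_69_P028862 (0.69 to 1.87) and A_69_P028863 (1.06 to 2.49), and above 0 on 3 of 4 arrays for A_69_P028861, with 0 on array 4. At A_69_P028861 the Cy3 value was the surrogate on all 4 arrays and the Cy5 value on 1. At A_69_P028862 the Cy3 value was the surrogate on 1 array. No GDNF probe was tested, and no FC is given. Without the filter on dim probes A_69_P028862 and A_69_P028863 were called higher (limma adjusted p = 0.0315 and 0.0421). The mean log2 ratio of A_69_P028863 was 1.56, against 0.19 with normexp and 0.32 without background correction.

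**Figure D2:**
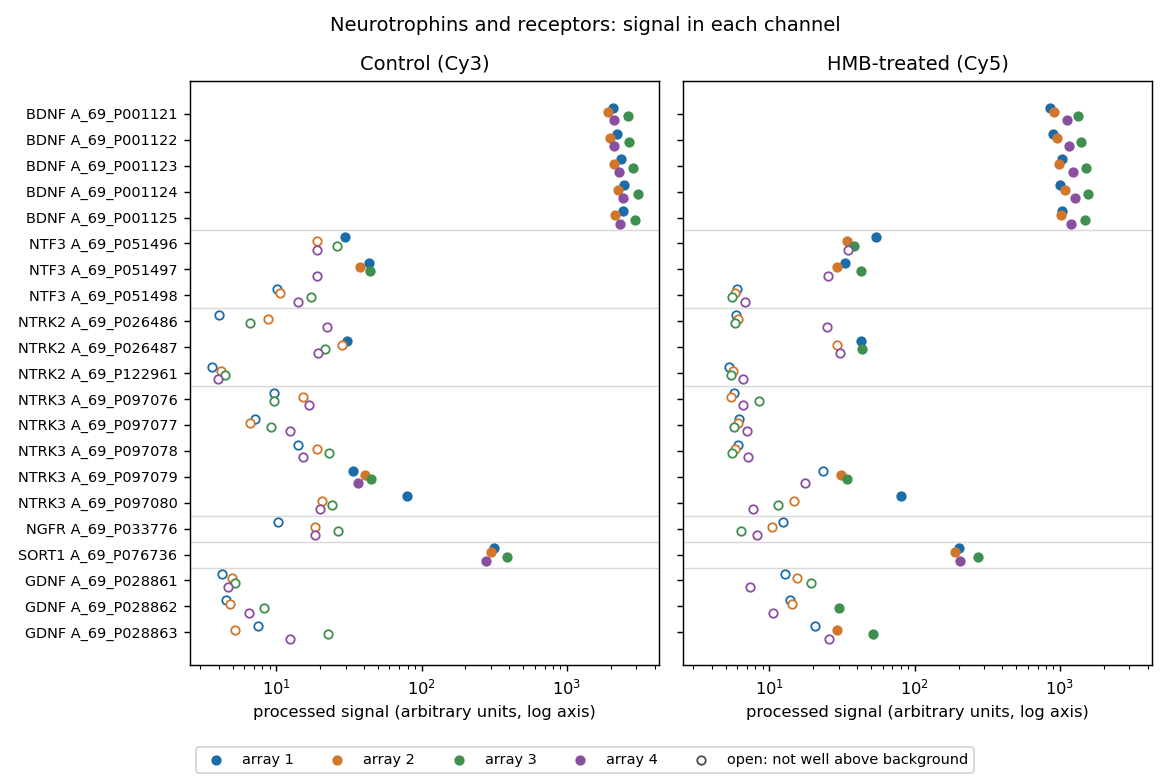
The processed signal of each probe is plotted on a log axis for control cells (Cy3, left) and HMB-treated cells (Cy5, right), 1 point per array, with open points where the spot was not well above background. BDNF and SORT1 are filled throughout in both channels, NTRK3 is filled on 4 arrays in control cells at 1 of its 5 probes, and NGFR is open on all arrays.

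The rest of the pathway was read from 8 gene lists, with 89 genes, of which 85 had a probe and 61 were tested at the brightest tested probe. Higher calls were made for 10 of the 61 genes and lower calls for 16, and their median log2 ratio was −0.15. Among all 8895 tested genes 27.7% were called, 10.6% higher and 17.1% lower, and the median was −0.082. When each array was scaled to its spike-in RNA, the median of all tested probes moved from −0.068 to −0.56, and the signs of IRS2 and CNTF turned. All directions below are therefore relative to the other genes on the array. Of the 26 called pathway genes, NCAM1, SORL1, MMP3, CREM and USF1 were called under every alternative in which they were tested, and the other 21 each lost the call with limma treat or with another background correction. With both channels required to be above background, 7 genes were called higher and 11 lower.

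NTF4, the other TrkB ligand, was at −0.15 (limma adjusted p = 0.181) and was not called. It was dim, with mean signals of 31.9 in control and 28.7 in HMB-treated cells. Its Cy5 signal was well above background on 2 of 4 arrays, so it was tested through its control channel alone. Among the relatives and partners of sortilin and p75, 3 of 7 genes were tested and 2 were called lower, at a median of −1.06. SORL1, a sorting receptor of the same family as SORT1, fell on 4 of 4 arrays (−1.42, −1.05, −0.79 and −0.998; mean −1.06, limma adjusted p = 6.00e-04). LINGO1, which forms a receptor complex with p75 and the Nogo receptor, fell by at least 1.89-fold with the reported processing. It was called at a limma adjusted p of 0.00129, and the FC is a bound, since no Cy5 signal was well above background. The log2 ratio of LINGO1 was −0.22 with normexp and −0.36 without background correction, and it was called in neither. RTN4R, the Nogo receptor itself, was at −0.036. Of the p75 adaptors, 10 of 11 were tested, 2 were called lower and none higher, with a median of −0.19. They were PRDM4, a zinc finger protein that binds p75 (−0.63, adjusted p = 9.79e-04), and NGFRAP1, which binds its death domain (−0.40, adjusted p = 0.00746), at −0.33 and not called without replicate 2.

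Of the Trk adaptors and scaffolds 15 of 23 were tested, 4 were called lower and 1 higher, and the median was −0.15. PLCG2, a phospholipase C, was at −1.17 (limma adjusted p = 0.00168), the Trk-bound scaffold KIDINS220 at −0.68 (0.00208), the Ras exchange factor SOS2 at −0.62 (9.63e-04) and the adaptor SHC3 at −0.50 (0.0102). The insulin receptor substrate IRS2 was at 0.45 (0.0295). GRB2, which links receptors to Ras, was at −0.030, and its 5 tested probes lay between −0.045 and 0.0037. SHC3 was not called without replicate 1 (−0.38), and IRS2 was called neither without replicate 2 (0.45), 3 (0.31) nor 4 (0.44). The Cy5 signal was above background on 2 of 4 arrays for PLCG2 and on 3 for SHC3. Both were thus tested through the group in which they were higher. PLCG2 and SHC3 were at −0.25 and −0.10 with normexp and at −0.35 and −0.15 without background correction, and were not called there.

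The proteases that act on proneurotrophins had the highest median of the 8 lists, at 0.60. Of 12 genes 6 were tested, 4 were called higher and none lower. The matrix metalloproteinase MMP3 was at least 3.84-fold higher in the HMB-treated group with the reported processing (limma adjusted p = 2.42e-05). The FC is a bound, since its control signal was above background on no array. MMP3 was thus tested through the group in which it was higher. The log2 ratio of MMP3 was smaller with normexp (0.756) and without background correction (1.096), and it was called in each. The gelatinases MMP2 and MMP9 were at 0.66 and 0.59 (adjusted p = 0.0103 and 0.00457), and tissue plasminogen activator PLAT, which starts the plasmin cascade, was at 0.62 (0.00287) with 5 of 5 probes called. With the scaling to spike-in RNA, MMP2, MMP9 and PLAT were at 0.17, 0.099 and 0.13 and were not called, whereas MMP3 was. Within the convertases PCSK1 was at 0.30 (adjusted p = 0.0223, below the FC threshold) and PCSK7 at −0.052, and FURIN was too dim to be tested.

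Of 16 genes listed as regulators of BDNF transcription, 15 were tested, 2 were called higher and 4 lower, and the median was −0.16. CREB1, through which activity induces BDNF, was at 0.036 (adjusted p = 0.729). The cAMP-responsive factor CREM was at −0.70 (7.14e-04), FNDC5, the precursor of irisin, at −0.55 (0.00204), the repressor REST at −0.40 (0.00316) and the muscle factor MEF2A at −0.38 (0.0104). USF1, an E-box factor, was at 1.34 (1.14e-04), and NPAS4, an early activity-induced factor, was at 0.67 (0.00972). MEF2A was at −0.32 and not called without replicate 1.

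The tested receptors of the GDNF family were called lower, but only NCAM1 kept its call with either other background correction. Of 9 genes 4 were tested and 3 were called lower, at a median of −0.75. NCAM1, an adhesion molecule that also serves GDNF as a receptor, was at −1.13 with 3 of 3 probes called (limma adjusted p = 2.51e-04). GFRA3, the artemin co-receptor, was at −0.83 with 5 of 5 probes called (0.00114), and GFRA1, the GDNF co-receptor, at −0.67 (0.00178). The brightest GFRA3 probe was above background on 4 arrays in control cells and on 3 in HMB-treated cells. It was thus tested through the group in which it was higher. With normexp GFRA3 and GFRA1 were at −0.21 and −0.22, and without background correction at −0.32 and −0.31. Neither was called in these settings. The ligand PSPN was at 0.081 (adjusted p = 0.358), and the shared kinase RET was too dim to be tested.
Among the other neurotrophic factors 7 of 10 genes were tested, 3 were called higher and 1 lower, and the median was 0.23. AGRN, which clusters acetylcholine receptors at the neuromuscular junction, was at 1.24 ± 0.74 (SD, n = 4; adjusted p = 0.00973). HGF, which activates satellite cells, was at 1.15 ± 0.66 (0.00854), with 1.80 and 1.63 on arrays 1 and 2 and 0.50 and 0.69 on arrays 3 and 4. The control signal was above background on 1 array for AGRN and on 2 for HGF, so both were tested through the group in which they were higher. Their means were 0.15 and 0.31 with normexp and 0.36 and 0.35 without background correction. CNTF was at 0.38 (0.00479), at −0.11 with the scaling to spike-in RNA, and fell under the FC threshold without replicate 1 (0.35), 2 (0.37) or 3 (0.37). CDNF was lower by at least 1.29-fold with the reported processing, as its Cy5 signal was above background on no array (limma adjusted p = 9.04e-05). The log2 ratio of CDNF was −0.19 with normexp and −0.37 without background correction, and it was called in neither. MANF, PTN and NENF were at −0.15, 0.21 and 0.23 and were not called.

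**Figure D3:**
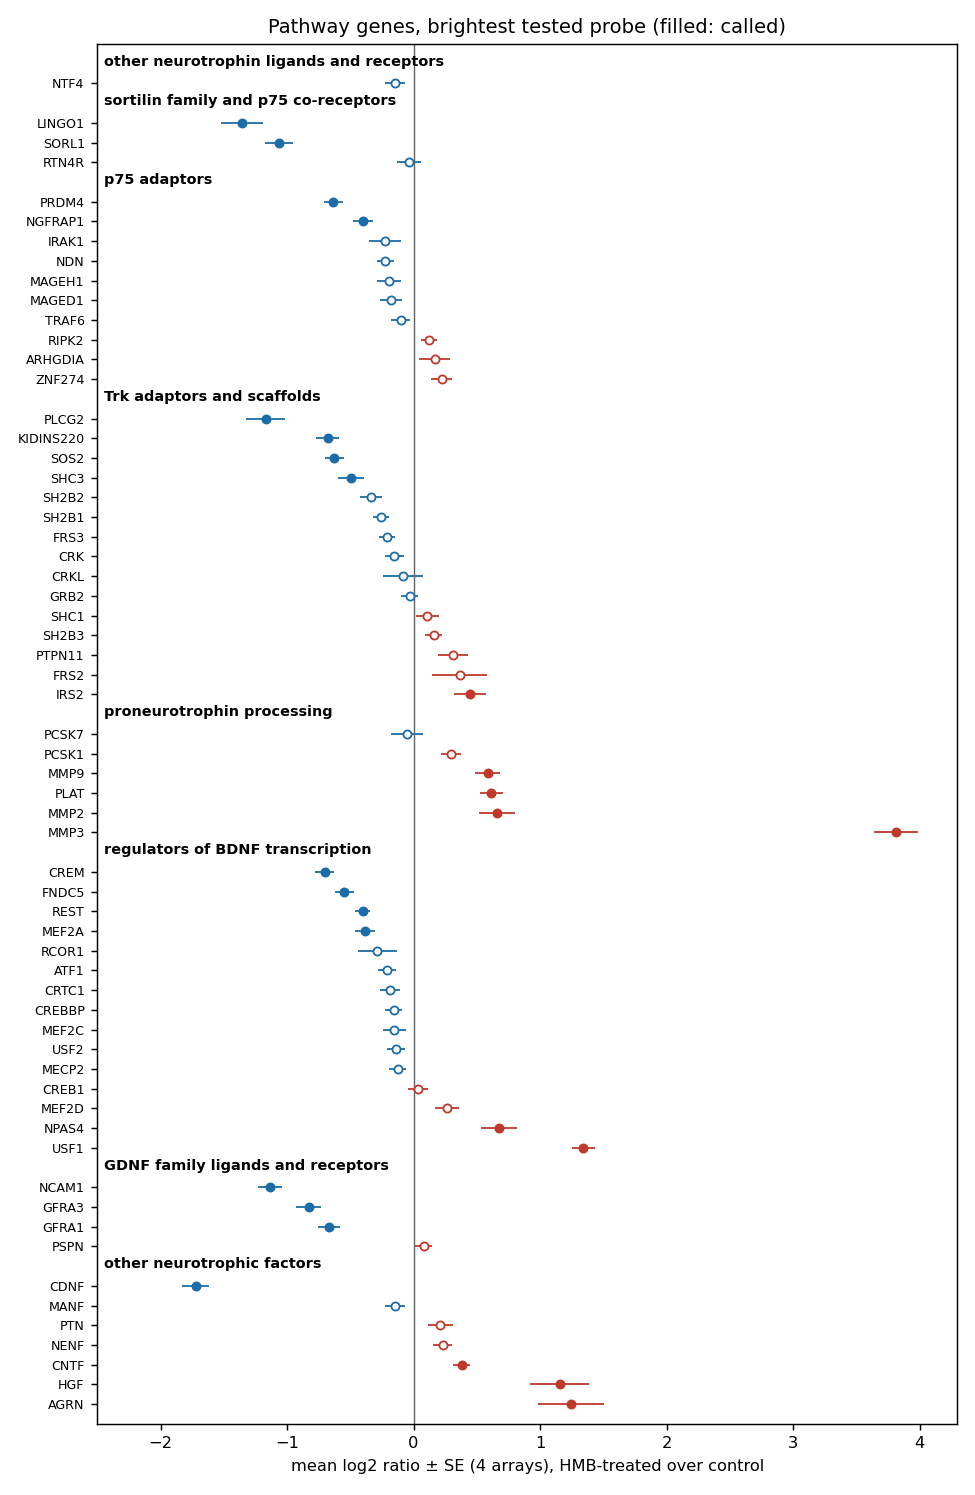
The mean log2 ratio of HMB-treated over control cells, with its SE over 4 arrays, is plotted for the 61 tested pathway genes in their 8 lists, with filled points for called genes. Proteases such as MMP2, PLAT and MMP3 lie to the right and SORL1, LINGO1 and the GDNF family receptors to the left. IRS2 and CNTF lie to the right here and changed sign with the scaling to spike-in RNA, which is not plotted. Of the filled points, those of MMP3, LINGO1 and CDNF rest on 1 channel at background. The filled points of AGRN, HGF, PLCG2, GFRA3 and SHC3 rest on a channel above background on 1 to 3 arrays.

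The cells were checked against marker genes, since nerve cells and Schwann cells also make these factors and receptors. Of 10 myogenic markers 9 were tested and 7 were called lower in the HMB-treated group, at a median of −0.93. The other 2 were the regulators MYOG, at 0.031, and MYOD1, at 0.32 at its brighter probe and −0.11 at the other, and neither was called. The summed signal of the list was 168554 to 190145 in control cells and 64451 to 102500 in HMB-treated cells. Most of it came from MYH3 and ACTA1, with mean control signals of 83384 and 65981. The satellite cell marker PAX7 was above background on no array, whereas MYF5 and CDH15 were above it on all. Of 7 fibroblast markers all were tested and 5 were called higher, with summed signals of 222047 to 259825 in control cells and 252299 to 387607 in HMB-treated cells. The largest part came from COL3A1, with mean signals of 146273 and 155284, which was not called at its brightest probe (0.064). Of the macrophage and leukocyte markers 3 of 6 were tested and 2 called higher, with sums of 15855 to 20187 and 19310 to 30928, and CD163 and AIF1 were above background on no array. Most of these sums came from 1 probe of PTPRC, with mean signals of 13588.5 and 19585. Only 6 of the 15 PTPRC probes passed the filter. The part of these shifts in the BDNF, SORT1 and NTRK3 ratios was not tested.
Of 6 Schwann cell markers, SOX10, GFAP and CDH19 were above background on no array, and the list summed to 106 to 166 in control cells and 71.6 to 133 in HMB-treated cells. The 1 that was tested, MBP, was called lower at −0.70. Of 8 neuron markers, SNAP25, RBFOX3, STMN2 and SYT1 were above background on no array, and the list summed to 126 to 141 and 101 to 129. The 1 that was tested, SYP, was called lower at −0.50. Of 5 endothelial markers none was tested and 4 were above background on no array, with sums of 43.7 to 83.3 and 49.9 to 80.9.

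The genes with the profile most like each called member over the 4 arrays were looked up among 8405 named genes outside the members, by the root mean square distance between log2 ratios. For BDNF they were SLC12A3 (distance 0.04), DISP1 (0.09) and BRE (0.09), with means of −1.04, −1.05 and −1.05. For SORT1 they were RCBTB2, CEP112 and ACP6 (distances 0.03, 0.03 and 0.04). For NTRK3 they were NABP1, PLXNB1 and TRAF4 (0.08, 0.10 and 0.10). These distances are a description over 4 arrays only.

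**Figure D4:**
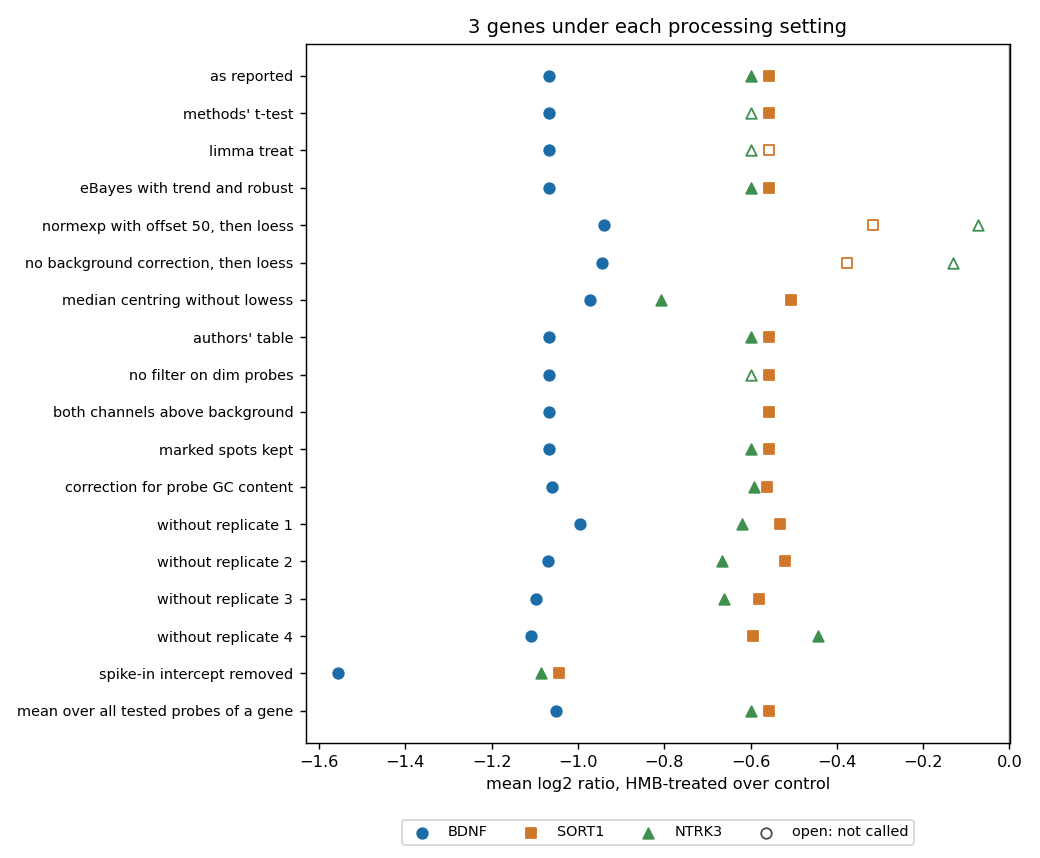
The mean log2 ratio of HMB-treated over control cells is plotted for BDNF, SORT1 and NTRK3 as reported and under each other processing setting, with open points where the gene was not called. BDNF stays between −1.56 (scaling to spike-in RNA, which lowers every ratio) and −0.94 and is called in each setting. SORT1 and NTRK3 move toward 0 with normexp (−0.32 and −0.074) or without background correction.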

How the data were processed

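The arrays were Agilent horse arrays with 2 colours, and all 4 lay on 1 slide. For the intensity values, the authors deposited scanner files with the mean, background and processed signals of each spot in each channel. The background had been subtracted and the dyes normalized with a linear and a lowess step in Feature Extraction, version 10.10.1.1 per the file headers. These deposited files also give a log10 ratio of the processed Cy5 over Cy3 signal. They were turned to log2 by a factor of 3.3219. The log10 ratios in the authors' table differ from these by at most 3.96e-05, and no column was left unassigned (0).

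Control spots (1264 positive, 153 negative) and spots flagged by the scanner software as non-uniform or outlying were left out, and spots of 1 probe were averaged. Between 55.2% and 61.8% of the spots were well above background in a channel, and 0 were saturated. The number of arrays limits the precision. A tested probe had 1 channel that was well above background on each of 4 arrays, with at least 3 ratios left. The test was limma 3.58.1 in R 4.3.3, with an intercept and empirical Bayes moderation, and p-values were adjusted with Benjamini-Hochberg over 24669 probes. Across the tested probes, ratios of 2 arrays correlated at 0.84 to 0.92. In simulated ratios with 200 changed probes among 24669, 153 were recovered with 5 false calls, and 25 were recovered with a t-test. In the data 7046 probes were called, so these rates need not hold for the arrays.

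Gene names are the files' own symbols or, for some genes, follow from an exact description. A gene in a list is given by its brightest tested probe. Named are all members, up to 4 called genes of each list with the largest change and any gene that a count of 3 or fewer refers to, and the 3 nearest profiles; a few other list genes (GRB2, CREB1, REST, MEF2A, FURIN, RET) were chosen after their values were seen. For a probe with 1 channel never above background, the FC is a bound, from channel values after loess and Aquantile normalization, open to dye bias. Such a bound holds for the reported background correction only. A few genes of the lists are not reported here. The members and lists were chosen with earlier results of these data known. The alternatives, with their effect below, concerned the test, the background correction, the normalization, the filter, marked spots, the probe summary, probe GC content and the replicates; the scaling to spike-in RNA, by the intercept in the file headers, was chosen after seeing the data.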

Additional observations from a re-analysis of the deposited data

Results flagged for a closer look

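Of 62 sets of 4 values of the members (log2 ratios and signals in each channel), 5 had 1 array far from the other three by Dixon's test, or 8.06%, where about 1 in 20 would be so by chance. At the NTRK3 probe A_69_P097080, array 1 gave a Cy3 signal of 79.5 against 20.0 to 24.2 on the other arrays and a Cy5 signal of 81.0 against 7.76 to 14.7. At the NTRK2 probe A_69_P026486, array 4 gave a Cy5 signal of 24.7 against 5.83 to 6.04. At the NTF3 probe A_69_P051496, array 3 gave a log2 ratio of 0.54 against 0.86 to 0.87. At the GDNF probe A_69_P028861, array 4 gave a log2 ratio of 0 against 1.59 to 1.90. Its Cy3 value was the surrogate on all 4 arrays and its Cy5 value on 1, so these ratios rest on no measured control signal. None of these probes was tested, and no BDNF or SORT1 value was set apart in this way.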

How the results depend on the processing

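BDNF was called lower under each of 17 alternatives, at log2 ratios of −1.56 to −0.94 and limma or t-test adjusted p of 9.22e-06 to 0.0137. The authors' table holds the same log10 ratios to within 3.96e-05, so it is no separate check. Keeping marked spots left the BDNF ratio at −1.07. SORT1 was called under 14 of 17 and NTRK3 under 11 of 16, and neither changed sign. These counts include the authors' table, kept marked spots and the mean over tested probes, which left SORT1 at −0.56 and NTRK3 at −0.60. They also include the scaling to spike-in RNA, which gave the −1.56 of BDNF. That scaling lowers every ratio and could only move a negative ratio further from 0. With limma treat, SORT1 (−0.56, adjusted p = 0.134) and NTRK3 (−0.60, 0.339) were not called, which left 1 member gene, and the pathway lists held 2 genes called higher and 7 lower. With normexp and loess, SORT1 was at −0.32 and NTRK3 at −0.074, 1 member gene was called, and the pathway genes were 3 higher and 5 lower. Without background correction the values were −0.38 and −0.13, with 1 member gene and 5 higher and 5 lower. NTRK3 (−0.60) was also not called with the methods' t-test, which gave 4 pathway genes higher, or without the filter on dim probes, which gave 6. In that last setting another NTRK3 probe was called (−1.52, adjusted p = 0.0220), and 4 member genes were called in all. With both channels required NTRK3 was not tested, and 2 member genes were called. With the scaling to spike-in RNA, 4 pathway genes were called higher and 41 lower, and IRS2 (−0.042) and CNTF (−0.11) changed sign. This follows from its construction, since each array was lowered by 0.37 to 0.57. The cause of the other losses was not tested. Over all probes, 7046 were called, against 2822 with treat, 3538 with normexp, 4439 without background correction and 18570 with spike-in RNA; 42.5% of the calls were higher, against 55.0%, 60.1%, 51.4% and 6.72% with normexp, without background correction, with median centring and with spike-in RNA, and 54.6% with treat.

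Leaving out 1 replicate at a time gave BDNF −1.11 to −0.99, SORT1 −0.59 to −0.52 and NTRK3 −0.67 to −0.44, with 7 to 8 member probes and 3 to 4 member genes called, 8 to 9 pathway genes higher and 14 to 16 lower. The reported test is paired, since each ratio sets both groups against each other within 1 array, and no further block was added. The planned scaling by expected spike-in ratios was not run, since the probe names do not give them. Signal over background limits NTF3, NTRK2, NGFR and GDNF.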
